A study of Drosophila melanogaster with 8 samples.

Results

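The 10 genes described here control or carry out programmed cell death in Drosophila melanogaster, and were chosen by their symbols in the probe annotation, older symbols included. They are rpr, hid, grim, skl, Dcp-1, Drice, Dronc, Diap1, Diap2 and egr. Of the 10, 6 had a named probe, 1 probe each, and all 6 were measured on all 8 arrays: grim, skl, Dcp-1, Dronc, Diap2 and egr. They stand among 11908 named genes in the table. The other 4, rpr, hid, Drice and Diap1, were not analysed here, so for these the data say nothing.

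Each array set RNA of asense mutant cells, genotype ase1/ase1, directly against RNA of control cells, genotype ase1/FM7-KrGFP, which the titles call wild type. The controls therefore carried the ase1 allele too, over a balancer chromosome marked with KrGFP. All samples came from the ventral nerve cord of stage 11 embryos kept at 25 °C and held neural stem cells, called neuroblasts, together with the ganglion mother cells they bud off. A sample held 50 to 100 cells, and its cDNA was amplified by PCR. The 8 arrays form 5 pairs of a mutant and a control sample, numbered 1, 3, 4, 5 and 6, and pairs 1, 4 and 5 were run on arrays a and b, which were averaged. The mutant carried Cy5 in pairs 1 and 3 and Cy3 in pairs 4, 5 and 6. Whether different pairs stem from different embryos is not given in the labels, so p-values here reflect only how much the pairs vary, and part of that may be technical.

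Apoptosis in the fly is held back by the inhibitor proteins Diap1 and Diap2, which bind caspases, the proteases that take a dying cell apart. The death proteins Reaper (rpr), Hid, Grim and Sickle (skl) bind Diap1 and so free the caspases. Dronc is the initiator caspase, which cleaves and activates the effector caspases Drice and Dcp-1. Eiger (egr) is the fly tumour necrosis factor and can start cell death through the JNK kinase cascade. In the embryonic ventral nerve cord, many abdominal neuroblasts are known to die by apoptosis late in embryogenesis, and the cluster that holds grim, rpr and skl is needed for it.

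All values below are log ratios of mutant over control, read as log2, so a positive value is higher in ase1/ase1 cells. The targeted gene asense (ase) lay between -6.50 and -4.81 on the 8 arrays, in either dye orientation, and this makes mutant over control the likely direction of the table. The number of arrays limits the precision, and between 8200 and 9276 probes were measured on each. Over the 8295 features with a value in at least 4 pairs, 18.3% were called in limma at a Benjamini-Hochberg adjusted p below 0.05, 6.98% higher and 11.3% lower. The median log ratio of all features was -0.07. Over these features arrays a and b correlated at 0.284 in pair 1, 0.304 in pair 4 and 0.415 in pair 5. Their signs were opposite for 42.5%, 42.7% and 37.1% of features. Among all arrays the correlation ran from 0.275 (1a with 6a) to 0.613 (4b with 5b), so repeat arrays were not the most alike.

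In ase1/ase1 cells the effector caspase gene Dcp-1 rose about 2.03-fold, while egr, grim and Diap2 fell, to levels 1.59-, 1.58- and 1.38-fold lower. Sickle (skl) and the initiator caspase gene Dronc did not pass the test, and their values spread widely between pairs. So 1 of 6 measured genes rose and 3 fell, against 6.98% and 11.3% of all features. The median over the 6 genes was -0.56. In bulk samples such as these, fewer cells of a type and less RNA per cell cannot be told apart. The increase of Dcp-1 kept its call whichever pair was left out. The 3 decreases did not, as the plot of adjusted p-values without each pair shows.

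**Figure D1:**
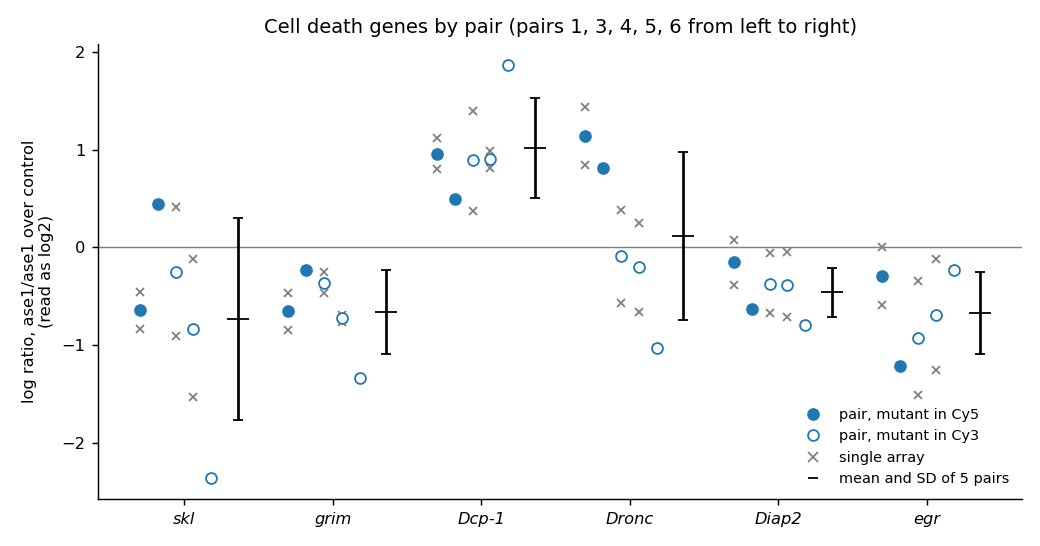
Log ratio of mutant over control (read as log2) for the 6 measured cell death genes. Circles are pairs 1, 3, 4, 5 and 6 from left to right, filled with the mutant in Cy5 and open with the mutant in Cy3, crosses are single arrays of the repeated pairs, and bars are the mean and SD of the 5 pairs. All 5 pairs of Dcp-1 lie above 0, all 5 of grim, Diap2 and egr lie below it, and skl and Dronc lie on both sides.

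Among the death proteins, grim had log ratios of -0.65 in pair 1, -0.23 in pair 3, -0.36 in pair 4, -0.72 in pair 5 and -1.33 in pair 6. All 8 arrays were below 0, and pair 6 was the lowest. The mean was -0.66 ± 0.43 (SD, n = 5 pairs, limma adjusted p = 0.0375), with a 95% interval of -1.06 to -0.26. Without pair 1, 4, 5 or 6 the limma adjusted p was 0.0907, 0.0707, 0.11 or 0.0599 at means of -0.66, -0.73, -0.64 and -0.49. Without pair 3 it was 0.0453 at -0.77. Of the features measured on all 8 arrays, 14.2% had the same sign on all 8, and Dcp-1 and grim were the 2 of these 6 genes that did.

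The related gene skl had a mean as low, -0.73 ± 1.03 (SD, n = 5 pairs, limma adjusted p = 0.169), but its pairs were at -0.64, 0.44, -0.25, -0.83 and -2.36 in the order 1, 3, 4, 5 and 6. Pair 3 was above 0 and pair 6 far below it. Without pair 6 the mean was -0.32 (limma adjusted p = 0.336), and over the fits that each left out 1 pair it ran from -1.02 to -0.32. The 95% interval, -1.53 to 0.07, includes decreases larger than that of grim. The SD of skl between pairs was larger than that of 96.8% of all features. Its repeat arrays also differed: array a was 1.32 above array b in pair 4 and 1.41 below it in pair 5, where the median size of such a difference over all features was 0.57 in pair 4 and 0.44 in pair 5. Neither gene's level in the mutant can be set against the other's, since the table holds ratios only.

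Along chromosome arm 3L the 4 death genes stand in the order hid, grim, rpr, skl in the Release 6 plus ISO1 MT assembly, and regulatory DNA of this region is known to act on several of them in dying neuroblasts. Of the 4 other protein-coding genes between hid and skl, 1 was tested, CheA75a, named here after its values were seen. Its mean was -0.64 ± 0.39 (SD, n = 4 pairs, limma adjusted p = 0.0524), so it was not called. All 4 measured pairs were below 0, where 34.5% of all features lay on one side of 0 in all measured pairs. Of 3 tested protein-coding genes just outside this stretch limma called 0, where 18.3% of all features were called.

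Among the caspases, Dcp-1, an effector caspase, had log ratios of 0.96 in pair 1, 0.50 in pair 3, 0.89 in pair 4, 0.90 in pair 5 and 1.87 in pair 6. Every one of the 8 arrays was above 0, from 0.37 on array 4a to 1.87 on the single array of pair 6. The mean was 1.02 ± 0.51 (SD, n = 5 pairs, limma adjusted p = 0.0133), with a 95% interval of 0.57 to 1.47, and 98% of all features had a lower mean. Without each pair in turn the mean ran from 0.81 to 1.15 and the limma adjusted p from 0.0156 to 0.0443. Pair 6 was the highest, and without it the mean was 0.81. On the a arrays alone Dcp-1 was at 0.91 with a limma adjusted p = 0.0622.

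Dronc, which acts upstream of Dcp-1, averaged 0.12 ± 0.86 (SD, n = 5 pairs, limma adjusted p = 0.791), with a 95% interval of -0.56 to 0.81. Its pairs were at 1.14 and 0.81 with the mutant in Cy5 (pairs 1 and 3), and at -0.09, -0.20 and -1.03 with the mutant in Cy3 (pairs 4, 5 and 6). The pair averages with the mutant in Cy5 lay above 0 and those with the mutant in Cy3 below it, but 2 single arrays with the mutant in Cy3 were above 0, 4a at 0.38 and 5b at 0.25. The difference a minus b was 0.60 in pair 1, 0.95 in pair 4 and -0.91 in pair 5. The 95% interval includes changes of either direction, and the sign of the mean depended on single pairs: leaving out pair 1 gave -0.13, leaving out pair 3 gave -0.05, and leaving out pair 6 gave 0.41.

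The inhibitor gene Diap2 fell by 0.46 ± 0.25 (SD, n = 5 pairs, limma adjusted p = 0.0494), just inside the threshold, with a 95% interval of -0.78 to -0.15. Its pairs were at -0.15, -0.63, -0.37, -0.38 and -0.79 in the order 1, 3, 4, 5 and 6, and 7 of 8 arrays were below 0. Pairs 1 and 6 lay farthest apart, yet 27.8% of all features had a smaller SD. Array a was above array b in each of the 3 repeated pairs, by 0.46, 0.60 and 0.66. Without any 1 pair the call was lost, at a limma adjusted p of 0.0664, 0.119, 0.105, 0.12 and 0.0964 without pairs 1, 3, 4, 5 and 6, with means between -0.54 and -0.38. After each array was centred on its measured values the mean was -0.39 (limma adjusted p = 0.0882).

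The ligand gene egr fell by 0.67 ± 0.42 (SD, n = 5 pairs, limma adjusted p = 0.0338), with a 95% interval of -1.06 to -0.27. Its pairs were at -0.29, -1.21, -0.93, -0.69 and -0.23 in the order 1, 3, 4, 5 and 6. All 5 were below 0, with pairs 3 and 4 lowest and pair 6 nearest to 0. In pair 6, which rests on a single array, grim, skl, Dronc and Diap2 were at their lowest and Dcp-1 at its highest. The repeat arrays of egr differed by -0.60, 1.17 and -1.13 (a minus b) in pairs 1, 4 and 5, and array 1b was at 0.0044. The median size of this difference over all features was 0.45, 0.57 and 0.44 in these pairs. Without pairs 1, 3, 4 and 5 the limma adjusted p was 0.0514, 0.0853, 0.106 and 0.0999, and without pair 6 it was 0.0308, at means from -0.78 to -0.53.

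**Figure D2:**
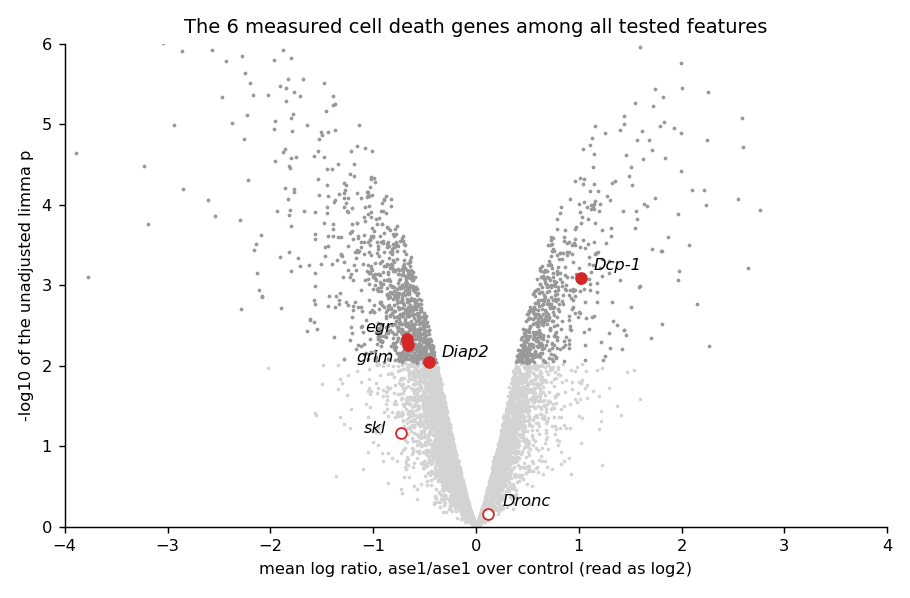
Mean log ratio of mutant over control (x axis, read as log2) against -log10 of the unadjusted limma p (y axis) for the tested features, dark grey where called, with 15 features beyond the axes. Filled red points are the called cell death genes and open ones those not called: Dcp-1 at 1.02 stands on the right, egr at -0.67, grim at -0.66 and Diap2 at -0.46 on the left near the edge of the called region, and skl at -0.73 and Dronc at 0.12 below it.

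Within a pair the genes kept part of their order. Dcp-1 stood above grim, Diap2 and egr on all 8 arrays, and over pairs its gap to the highest of the 3 ran from 0.73 to 2.10. Since these genes were grouped by their calls on the same arrays, this order largely restates the calls. Dronc stood above Dcp-1 in pairs 1 and 3. The lowest of the 6 genes was grim in pair 1, egr in pairs 3 and 4, and skl in pairs 5 and 6, so the places of the 3 lower genes and skl were not stable. Values on one side of 0 in all pairs were found for 4 of the 6 genes, against 34.5% of all features.

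**Figure D3:**
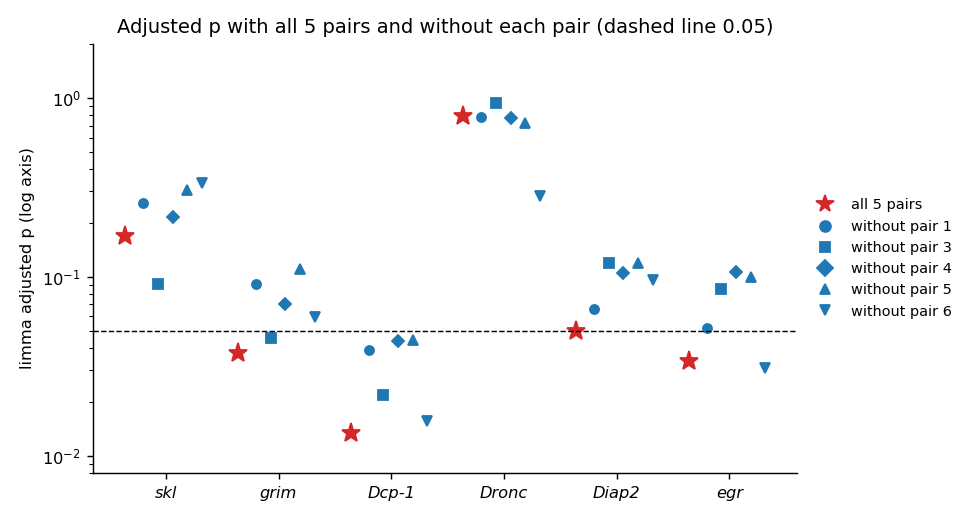
Limma adjusted p (log axis) of each measured cell death gene with all 5 pairs (stars) and without each pair in turn (other symbols), with the threshold of 0.05 dashed. Dcp-1 stays below the line throughout, grim crosses it in 4 fits, egr in 4 and Diap2 in all 5, while skl and Dronc are above it in every fit.

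The genes whose values over the 5 pairs were nearest to those of Dcp-1, by root mean square difference among 6574 named genes, were CG8545 (0.13), the Bearded-family gene E(spl)m4-BFM (0.14) and CG4004 (0.22), where the median over all was 1.22. They too were highest in pair 6, at 2.08 in CG8545, 1.75 in E(spl)m4-BFM and 1.85 in CG4004. Their choice by closeness to Dcp-1 over the same pairs made this peak likely beforehand. This is a description over 5 pairs that share their arrays.

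Other genes of the death pathways were followed in 10 lists holding 123 genes, of which 94 had a named probe and 85 were tested. Limma called 9 higher and 3 lower, 14.1% against 18.3% of all features, and the median over the 85 was 0.07. The calls lay in 5 lists, and the caspase, inhibitor, Bcl-2, p53 and neuroblast lists held 0, with 1, 1, 3, 1 and 2 genes at an unadjusted p below 0.05.

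Of the 4 tested further caspases and apoptosome genes limma called 0, with a median of 0.08. The adaptor gene Dark, which assembles the apoptosome with Dronc, was at -0.17 ± 0.13, named beside Dronc after its values were seen. The genes with the smallest p were eIF3m (0.59, limma adjusted p = 0.0877, and called at 0.80 without pair 3), also known as Tango7, and the caspase gene Dredd (0.33, limma adjusted p = 0.158). Of the 8 partners and turnover factors of the inhibitors limma called 0 as well, with a median of 0.14. The survivin homologue gene Det (-0.37, limma adjusted p = 0.0878) and the mitochondrial protease gene HtrA2 (0.35, limma adjusted p = 0.187) came nearest. Limma called 0 of 7 Bcl-2 family and DNA fragmentation genes (median -0.02), among them Drep1 (0.39, n = 4 pairs, limma adjusted p = 0.0862) and the Bcl-2 family gene Debcl (0.83 ± 0.97, limma adjusted p = 0.11, and called at 1.20 without pair 5).

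Of 14 tested TNF and JNK genes 3 rose and 1 fell, 28.6% of the list, where 18.3% of all features were called. The median of the gene means was -0.03, while the list medians by pair ran from 0.0036 to 0.20. The receptor gene grnd, whose product binds Eiger, rose by 0.69 ± 0.21 (SD, n = 5 pairs, limma adjusted p = 0.0123), with pairs between 0.46 and 0.97. Tab2 (0.87 ± 0.43), a partner of the kinase Tak1, and the kinase gene Ask1 (0.67 ± 0.22) rose too. The JNK kinase kinase gene slpr fell by 1.64 ± 0.40 (SD, n = 5 pairs, limma adjusted p = 0.00143), from -2.13 in pair 6 to -1.07 in pair 3. The second Eiger receptor gene wgn (-0.13), the JNK gene bsk (0.01) and puc (-0.07), a phosphatase gene that JNK signalling induces, did not pass and are named after their values were seen. Tab2 lost its call without pair 4 or pair 5, and grnd, Ask1 and slpr kept theirs without each pair.

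Of 5 tested Hippo pathway genes 1 fell, 20% of the list, where 18.3% of all features were called. It was wts, the kinase gene that restrains Yorkie, an activator of Diap1 transcription. Its mean was -1.48 ± 0.21 (SD, n = 5 pairs, limma adjusted p = 8.76e-04), with pairs between -1.76 and -1.25, and the call held without each pair. The list median was 0.26, above 0, and the other tested members lay between -0.45 and 0.31. Of 8 survival signalling genes 3 rose and 0 fell, 37.5% of the list against 18.3% of all features, with a median of 0.39. The 3 were the receptor gene Egfr (0.66 ± 0.50, limma adjusted p = 0.0485), Star (S, 0.70 ± 0.32) and argos (aos, 0.89 ± 0.34). Star helps release the ligand of the receptor, and argos encodes a secreted inhibitor of the receptor's signalling. Egfr was called in 1 of the 5 fits that left out a pair, the one without pair 6. S lost its call without pair 4 or pair 5, and aos kept its own in each. Without pair 6 the growth factor gene ths was called lower, at -0.64.

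Of 7 p53 and checkpoint genes limma called 0, with a median of 0.18. Ku80, which joins broken DNA ends, was at 1.23 ± 1.11 (limma adjusted p = 0.0541) with 3.06 in pair 3, and the checkpoint kinase gene lok at 0.42 ± 0.53 (limma adjusted p = 0.173). Of 6 tested regulators of neuroblast death limma called 0. With each probe tested on its own, instead of averaged by gene, 2 genes of this list were called. The 6 means were below 0, with a median of -0.28, and the list medians by pair ran from -0.76 to 0.05, above 0 in pairs 3 and 5. Among the 6, Antp, cas, hb and wor, named after their values were seen, changed sign between pairs, and so did ct. The transcription factor genes grh (-0.68 ± 0.54, limma adjusted p = 0.0542, and called at -0.83 without pair 1) and ct (-0.72 ± 0.75, limma adjusted p = 0.0911) had the smallest p. The Hox gene abd-A, which acts with grh in neuroblast death, was not analysed here.

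The engulfment list had 8 tested genes, most of which act in the cells that clear dying neighbours. The transcription cofactor gene ush (0.20) was counted among them. Of the 8, 1 rose and 1 fell, with a median of 0.20. That was 25% of the list, where 18.3% of all features were called. The adaptor gene ced-6 rose by 1.99 ± 0.67 (SD, n = 5 pairs, limma adjusted p = 0.00285), with pairs at 1.49, 2.62, 2.41, 2.35 and 1.06 in the order 1, 3, 4, 5 and 6. The receptor gene that works with it, drpr, named after its values were seen, was at 0.31 ± 0.26 (limma adjusted p = 0.149). The macrophage receptor gene crq fell by 1.05 ± 0.27 (SD, n = 5 pairs, limma adjusted p = 0.00408). Calls of ced-6 and crq held without each pair. Of 18 autophagy genes 2 rose and 0 fell, with a median of 0.03, and these 11.1% lay below the 18.3% of all features. The 2 were the membrane protein gene Atg9 (0.67 ± 0.28), whose call was lost without pair 1 or pair 3, and Atg18a (0.58 ± 0.33), which kept it only without pair 3.

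**Figure D4:**
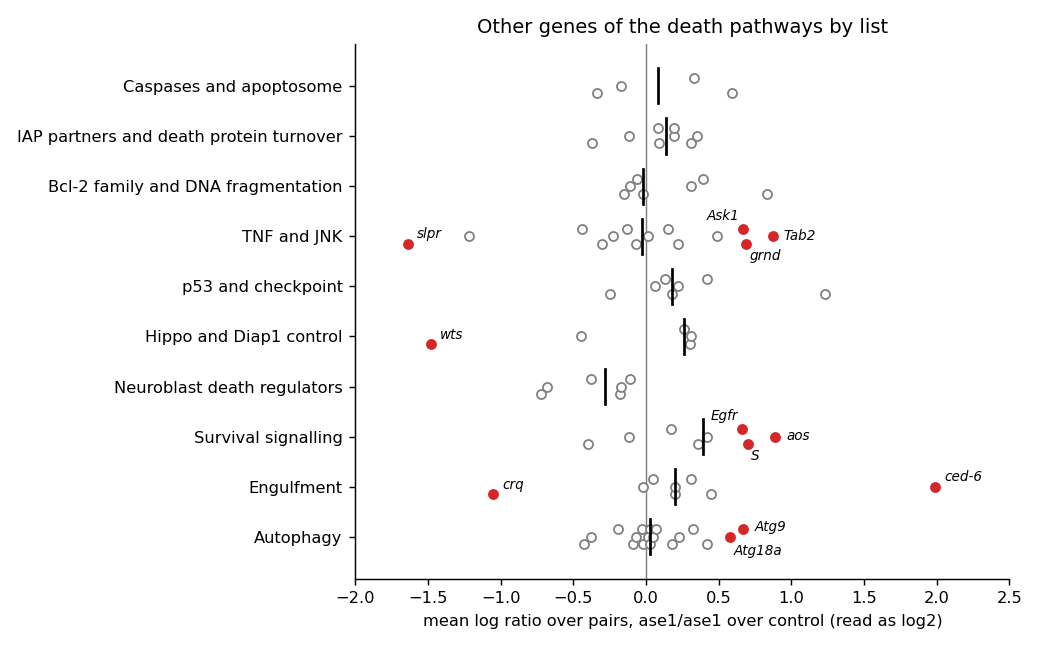
Mean log ratio of mutant over control (x axis, read as log2) of the tested genes in 10 lists of the death pathways, 1 list per row, with called genes filled and named and the list median as a black line. The lowest called genes are slpr at -1.64, wts at -1.48 and crq at -1.05, while wnd at -1.22 was not called. The highest value is ced-6 at 1.99.

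Some markers of other cell types also passed the test, where 18.3% of all features did. Of 5 tested glial markers out of 8 listed, 3 fell, 0 rose and 2 did not pass, and their median ran from -1.73 in pair 6 to -0.21 in pair 4. Of 5 tested hemocyte markers out of 10, 2 fell, 1 rose and 2 did not pass, with medians from -0.51 to -0.22, and crq is one of the 2. Of 4 tested mesoderm and muscle markers out of 9, 2 fell, 0 rose and 2 did not pass, with medians from -1.28 to 0.23. Ectoderm markers had 2 higher, 0 lower and 3 not passed of 5 tested out of 6, and neuronal markers 0 higher and 2 lower of 3 tested out of 7. Of the 11 neuroblast markers, all tested, 1 rose and 4 fell, ase included. The table gives no levels, so how strongly any marker was expressed is unknown here, and the part of these cells in the values of the death genes was not tested.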

How the data were processed

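The deposited table holds 1 log ratio of the 2 channels per probe and array for 14569 probes, read here as log2. How the authors normalized and centred these ratios, and in which log base, is not given in the sources used here. A log10 scale would allow sizes up to 4.82 for a 16-bit scan, and the largest found was 7.43, while with a natural log folds would be larger. Exact zeros, 36.3% to 43.7% of an array's values, were taken as not measured, and the measured medians lay between -0.18 and -0.02. The design text counts 8 samples per genotype, the source names 5.

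Probes were named through the platform annotation, with symbols updated by gene identifier (12012 probes) or accession (107) from the Release 6 plus ISO1 MT gene table. A single symbol was held by 12658 probes, 96 had several and 1815 none. Arrays a and b, then the probes of a gene, were averaged. A feature with a value in at least 4 of 5 pairs entered a two-sided limma fit (version 3.58.1, R 4.3.3, lmFit then eBayes) of its mean against 0. Calls needed an adjusted p (Benjamini-Hochberg) below 0.05. The procedure was tested on simulated data. Dark, grh and ct had 2 probes each and Antp had 3. Every other named gene had 1 probe unless said otherwise.

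The genes and lists were chosen with earlier results of these data known. The rule names ase, the 10 genes, list members past the test, the 2 smallest p of a list with none, and the 3 genes most like the gene with the smallest p. Alternatives left out each pair, changed centring, scaling, dye terms, repeat arrays, probe averaging, zeros, missing values, moderation and the threshold. Probe sequences were not used here.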

Additional observations from a re-analysis of the deposited data

Results flagged for a closer look

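Of the 6 measured cell death genes, Dronc was the 1 whose pair averages lay on opposite sides of 0 in the 2 dye orientations. Single arrays did not all follow, with arrays 4a at 0.38 and 5b at 0.25 above 0. Its mean log ratio was 0.97 over the 2 pairs with the mutant in Cy5 and -0.44 over the 3 pairs with the mutant in Cy3, a difference of 1.42. As a dye term in limma this had an unadjusted p = 0.00598 and an adjusted p = 0.947 over 8295 features, of which 0 passed the threshold and 334 had an unadjusted p below 0.05. Dye orientation and pair cannot be told apart, since each pair was labelled 1 way only.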

How the results depend on the processing

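Over 20 alternatives Dcp-1 kept its call in 15, grim in 9, egr in 8 and Diap2 in 5, and these 4 genes and skl changed direction in 0 of them. With each pair left out in turn the genes called higher numbered 1 each time and those called lower 0 to 1, where all 5 pairs gave 3. Means then ran from -0.77 to -0.49 for grim, 0.81 to 1.15 for Dcp-1, -0.54 to -0.38 for Diap2, -0.78 to -0.53 for egr, -1.02 to -0.32 for skl and -0.13 to 0.41 for Dronc, which turned to -0.13 without pair 1 and -0.05 without pair 3. All features called then numbered 588 to 1267 instead of 1520, and genes of the wider lists 5 to 8 higher instead of 9 and 3 to 4 lower. Centring gave 1 of the 6 genes lower, egr, with grim at -0.58 and Diap2 at -0.39 not called, and split all calls into 802 higher and 707 lower instead of 579 and 941. Scaling as well gave 1 lower, grim, with Diap2 at -0.36 and egr at -0.58 not called, and 780 higher and 693 lower in all. A dye term gave 0 lower, with grim at -0.62, Diap2 at -0.45 and egr at -0.68. Pairs with the mutant in Cy5 alone gave 0 calls in limma, with grim at -0.44, Dcp-1 at 0.73, Diap2 at -0.39 and egr at -0.75. Pairs with the mutant in Cy3 alone gave 270 calls, 0 of the 6 genes and 1 higher in the wider lists, with grim at -0.80, Dcp-1 at 1.22, Dronc at -0.44, Diap2 at -0.51 and egr at -0.61. These last fits rest on 2 and 3 pairs. Array a alone gave 474 calls, 0 of the 6 genes and 4 higher in the wider lists, with grim at -0.60, Dcp-1 at 0.91, Diap2 at -0.29 and egr at -0.72. Array b of the repeated pairs left egr at -0.61 uncalled and gave 5 lower in the wider lists. All 8 arrays with the pair as a random block gave 14 higher and 5 lower there, and single probes 5 lower. Zeros kept as values gave 345 calls, 0 of the 6 genes and 2 higher in the wider lists, with grim at -0.66, Dcp-1 at 1.02, Diap2 at -0.46 and egr at -0.67. A threshold of 0.01 gave 371 calls, 0 of the 6 genes and 2 higher in the wider lists, with the means unchanged. Diap2 at -0.46 also lost its call with values in at least 3 pairs and with trended, robust moderation. The causes of these changes were not tested. Of the 12 called genes of the wider lists 0 reversed. Each lost its call in at least 1 alternative, but this was fixed beforehand, since the Cy5 pairs alone gave 0 calls over all features. Of 200 counts for single lists under these alternatives 41 moved by over 1.5 times, 26 to fewer calls and 15 to more. Each ratio already sets a mutant sample against the control of the same pair, so the fit over all 5 pairs is itself paired.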
